A study of Homo sapiens with 21 samples.

Results

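Translation initiation factors are the proteins that bring the initiator tRNA, the mRNA and the ribosomal subunits together. The 40 genes described here encode the factors eIF1, eIF2, eIF2B, eIF3, eIF4, eIF5 and eIF6 and close relatives of them. They were chosen by symbol, with no measured value in the rule but with earlier results of these data known. Each symbol matched 1 of the 60671 rows of the count table. All 40 passed the filter on low counts, among 14012 genes tested. The mRNA of OCI-AML3 cells, a myeloid leukaemia line, was measured in 5 groups: untreated at 0 h, in the solvent DMSO for 4 h or 24 h, and in 1 μg/mL tunicamycin for 4 h or 24 h. The mRNA of HEK293T cells, an embryonic kidney line, was measured after 24 h in DMSO or in the same dose of tunicamycin. Each of the 7 groups held 3 replicates. Tunicamycin blocks N-linked glycosylation and so leaves unfolded proteins in the endoplasmic reticulum (ER). The labels do not say that the replicates were separate cultures, so the p-values measure only the spread between these libraries. Each cell type is represented by 1 established line, and a 4 h time point of HEK293T cells is not analysed here.

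In initiation, eIF2 carries the initiator tRNA to the small ribosomal subunit, eIF1, eIF1A and eIF3 hold that subunit open for scanning, and the eIF4 factors bind the cap and unwind the mRNA. eIF5 makes eIF2 hydrolyse its GTP once a start codon is found, and eIF2B then exchanges the GDP on eIF2 for GTP. In ER stress, the kinase PERK phosphorylates the alpha subunit of eIF2, which turns eIF2 into an inhibitor of eIF2B and slows most initiation.

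The libraries held 13838480 to 19961819 counts, and the 40 genes made up 1.06 to 1.39% of the counts of a library. Values are CPM, that is, counts scaled to a common library size, after TMM, which adjusts library sizes for differences in composition. HSPA5, the ER chaperone BiP, rose after tunicamycin by 3.29 at 4 h and 3.52 at 24 h in OCI-AML3 cells and by 2.7 in HEK293T cells on the log2 scale. PTPRC, SPI1, CD33, CSF3R, LYZ and ITGB2, which mark myeloid cells, were at 54.0 CPM or more in every OCI-AML3 library and at 0.269 CPM or less in every HEK293T library. The myeloid marker MPO reached only 0.980 to 1.66 CPM in OCI-AML3 cells. In HEK293T cells NEFM, NEFL, KRT18 and CDH2 were at 41.0 CPM or more, and in OCI-AML3 cells at 4.36 CPM or less. The kidney marker PAX2 was low in HEK293T cells, at 0.960 to 1.51 CPM, and at 0 in OCI-AML3 cells. LHX1 did not separate the lines, at 0.909 to 2.10 CPM in HEK293T and 1.23 to 3.12 CPM in OCI-AML3 cells. Of the OCI-AML3 libraries, replicate 1 of DMSO at 4 h and replicate 3 of tunicamycin at 24 h stood farthest from their partners. For the former, the chi-square per degree of freedom over all tested genes was 19.96 and 19.39, against 3.89 between its partners. For the latter it was 16.4 and 23.7, against 7.77.

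Tunicamycin moved these mRNAs by small amounts, upward and downward in similar number at 4 h and mostly downward at 24 h in OCI-AML3 cells. In OCI-AML3 cells at 4 h, 9 of the 40 genes rose and 10 fell at an adjusted p of at most 0.05 (edgeR's quasi-likelihood test with Benjamini-Hochberg adjustment over all genes tested, used for every adjusted p below). Of all genes tested, 18.5% rose and 18.9% fell, and 22.5% and 25% of the 40 did. At 24 h, 5 of the 40 (12.5%) rose and 21 (52.5%) fell, where 23.5% and 27.7% of all genes did. In HEK293T cells at 24 h, 6 (15%) rose and 9 (22.5%) fell, where 12.6% and 13.1% of all genes did. Over the 40 genes the log2 fold changes had a median of 0.0072 at 4 h, of -0.24 at 24 h and of -0.035 in HEK293T cells, where the median of all genes tested was -0.017, -0.0084 and -0.0061. Only EIF1 at 4 h passed a log2 fold change of 1 in size, and none of the 40 did at 24 h in either line. Of all genes tested, 4.92%, 6.32% and 2.13% were called past that size. The HEK293T count depends on the samples fitted together: with the HEK293T groups fitted alone 29 of the 40 were called and 41.3% of all genes, against 15 of the 40 and 25.7% of all genes with all 21 libraries. Without the DMSO library at 4 h that stood apart 21 of the 40 were called in place of 19, and 36.4% of all genes in place of 37.5%. Without the tunicamycin library at 24 h that stood apart the members called were 23 in place of 26, and 41.7% of all genes in place of 51.1%.

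**Figure D1:**
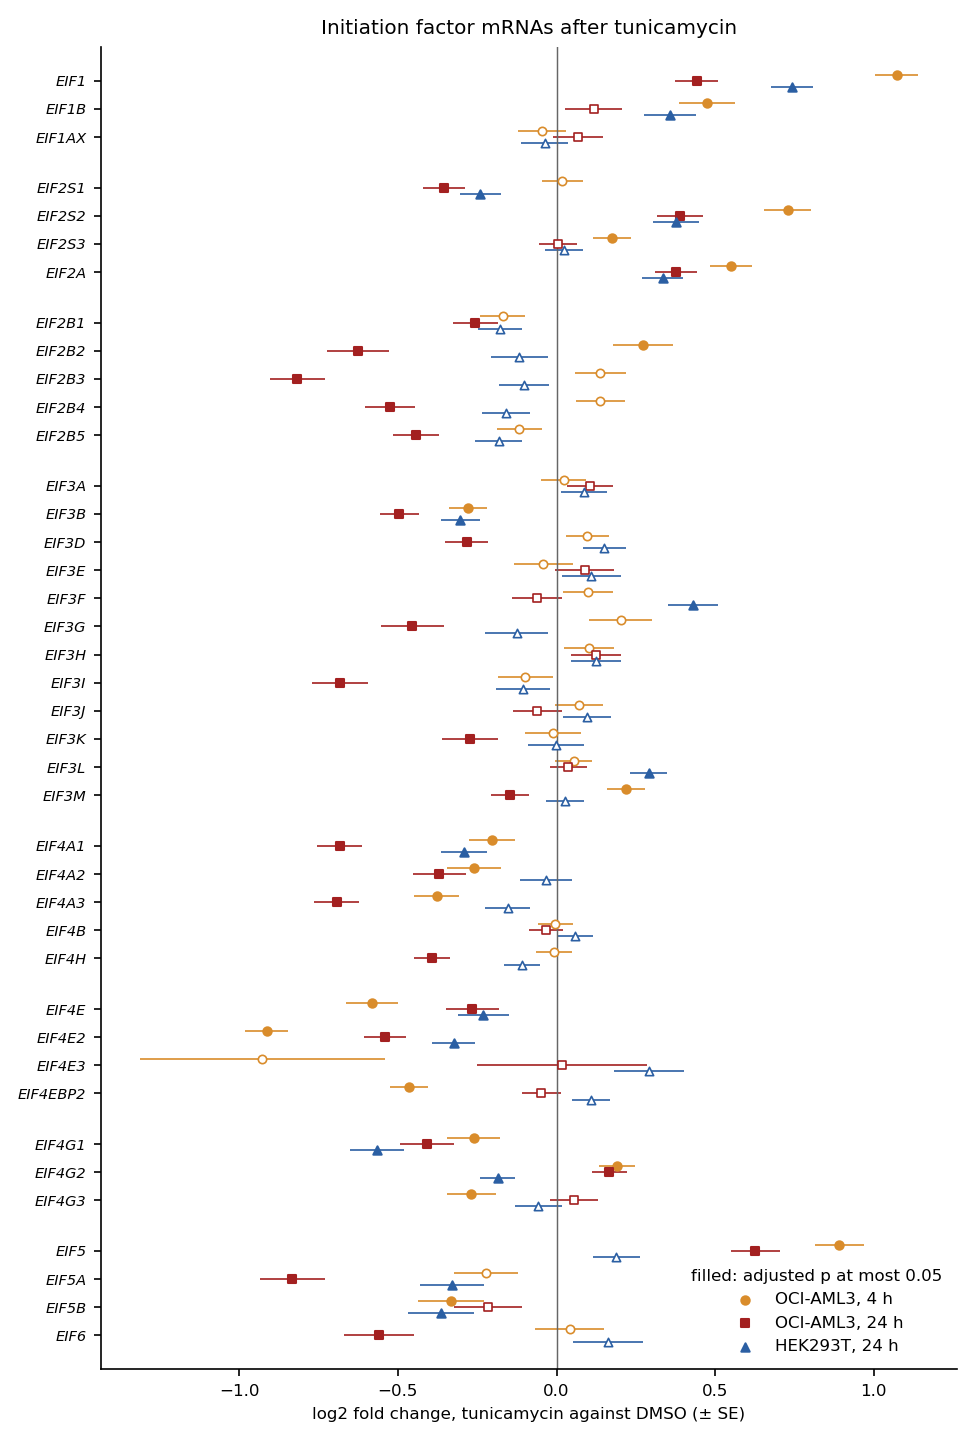
Log2 fold change of each of the 40 initiation factor mRNAs (rows by complex) after tunicamycin against DMSO, with its SE as a bar and with a filled symbol where the adjusted p was at most 0.05. EIF1 at 4 h lies farthest to the right at 1.07, and all 5 eIF2B subunits lie left of 0 at 24 h in OCI-AML3 cells.

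The summed level of the 40 mRNAs was 12822 to 13358 CPM after 4 h of tunicamycin and 12730 to 13494 CPM after 4 h of DMSO, so that the groups overlapped. After 24 h it was 10754 to 11554 CPM with tunicamycin and 12918 to 13123 CPM with DMSO in OCI-AML3 cells. In HEK293T cells it was 11927 to 12216 CPM and 12401 to 12661 CPM. In both lines the groups did not overlap at 24 h. Abundant mRNAs weigh most in this sum, so it does not describe the 40 as a set. In OCI-AML3 cells the mean of EIF4A1 went from 1776 to 1106 CPM and that of EIF5A from 1034 to 581 CPM. In HEK293T cells EIF4A1 went from 1315 to 1075 CPM, EIF5A from 974 to 776 CPM and EIF4G1 from 810 to 548 CPM. Of the 40, 5 were called higher and 21 lower in OCI-AML3 cells, and 6 and 9 in HEK293T cells. In RNA from whole cultures, fewer cells that express a gene and less of its RNA per cell cannot be told apart.

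EIF1 encodes eIF1, which guards the choice of the start codon during scanning. Its level after 4 h was 269.6, 229.7 and 229 CPM in the DMSO replicates and 536, 491 and 504 CPM in the tunicamycin replicates. After 24 h it was 335, 323 and 334 CPM and 458, 477 and 413 CPM in OCI-AML3 cells. HEK293T cells held 299, 311 and 312 CPM and 513, 501 and 529 CPM. In every comparison each tunicamycin library lay above each DMSO library. The log2 fold change was 1.07 ± 0.067 (SE) at 4 h (adjusted p = 1.6e-11), 0.44 ± 0.067 at 24 h (adjusted p = 1.1e-05) and 0.74 ± 0.067 in HEK293T cells (adjusted p = 1.3e-08). The rise was 2.10-fold at 4 h and 1.36-fold at 24 h, and the test of the difference between the times, which uses the same 12 libraries, gave a log2 difference of -0.63 ± 0.094 (adjusted p = 2.6e-05). Its close paralog EIF1B rose at 4 h (0.47 ± 0.087, adjusted p = 0.00015) and in HEK293T cells (0.36 ± 0.083, adjusted p = 0.0025), and was not called at 24 h in OCI-AML3 cells (0.12 ± 0.089). EIF1AX, the gene of eIF1A, was called in none of the 3 comparisons, with values between -0.046 and 0.068.

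eIF2 has 3 subunits, and they did not move together. EIF2S1 encodes the alpha subunit, which PERK phosphorylates. At 4 h it stood at 162, 153 and 153 CPM in DMSO and 158, 149 and 167 CPM in tunicamycin, and the groups overlapped (0.018 ± 0.065, adjusted p = 0.86). At 24 h it fell from 106, 123 and 119 CPM to 87.1, 92.8 and 92.3 CPM (-0.36 ± 0.066, adjusted p = 0.00012). HEK293T cells showed a fall from 111, 114 and 117 CPM to 100.52, 92.7 and 96.3 CPM (-0.24 ± 0.065, adjusted p = 0.0088), a call that was lost without replicate 2 of tunicamycin (adjusted p = 0.051). EIF2S2, the gene of the beta subunit, moved the other way. It rose from 199.99, 199.94 and 222 CPM to 327, 342 and 361 CPM at 4 h, which was 1.66-fold (0.73 ± 0.073, adjusted p = 4e-08). It rose from 155, 166 and 155 CPM to 197, 207 and 220.0 CPM at 24 h (0.39 ± 0.073, adjusted p = 0.00014). HEK293T cells showed a rise from 213, 205 and 227 CPM to 269, 282 and 287 CPM (0.38 ± 0.072, adjusted p = 0.00045). EIF2S2 had counts that were not whole in 38.1% of the libraries, so some of its reads fit other loci too. The difference between its rises at 24 h in the lines, -0.013 ± 0.1 on the log2 scale, was not called (adjusted p = 0.96), and its rise at 4 h exceeded that at 24 h in OCI-AML3 cells (-0.34 ± 0.1, 24 h minus 4 h, adjusted p = 0.014). EIF2S3, the gene of the gamma subunit that binds GTP and the tRNA, passed the test at 4 h, with 266, 259 and 285 CPM in DMSO and 305, 302 and 306 CPM in tunicamycin (0.17 ± 0.06, adjusted p = 0.025). That call was lost under 7 of 14 alternatives, among them the omission of replicate 2 of DMSO or of any tunicamycin replicate at 4 h (adjusted p = 0.052 to 0.1). At 24 h its values, neither of them called, were 0.0038 ± 0.06 in OCI-AML3 and 0.023 ± 0.059 in HEK293T cells.

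EIF2A, which encodes a single-chain protein that is able to deliver initiator tRNA without GTP and is no subunit of eIF2, rose in all 3 comparisons. At 4 h it was at 101.19, 99.0 and 105 CPM in DMSO and 149.6, 149.6 and 147 CPM in tunicamycin (0.55 ± 0.066, adjusted p = 5.9e-07). At 24 h it was at 115, 116 and 126 CPM and 148, 149 and 166 CPM (0.38 ± 0.065, adjusted p = 5.7e-05). HEK293T cells held 100.89, 99.5 and 105 CPM and 123, 128 and 133 CPM (0.33 ± 0.065, adjusted p = 0.00053). The groups overlapped in none of them. SERP1, a gene on the opposite strand that encodes an ER membrane protein, shares 252 exon bases with EIF2A, 4.27% of the exon bases of EIF2A. SERP1 rose as well, with log2 fold changes of 0.58 ± 0.068, 0.60 ± 0.068 and 1.22 ± 0.068 in the 3 comparisons. Whether reads were counted by strand is not given in the sources used here, and the part of the shared bases in the values of EIF2A was not tested.

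The promoter windows of 4 genes are shown. EIF1 and EIF2A rose, EIF2B3 fell most among the eIF2B subunits at 24 h, and EIF4E fell in all 3 comparisons. EIF5, which rose in OCI-AML3 cells, and EIF4E2, which fell in all 3 comparisons, have windows that are not shown. All are RefSeq windows on GRCh38.p14, 250 bases before to 50 after the start of transcription, read 5′ to 3′ in the direction of the gene. Capitals mark matches to any of 4 motifs searched on both strands: the ER stress response element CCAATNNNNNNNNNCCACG, TGATGNAA (the core letters of ATF4 sites), TGACGTCA (the cAMP response element) and CACGTG (the E-box). The windows are chr17:41688635-41688934 on the plus strand for EIF1, chr3:150546537-150546836 on the plus strand for EIF2A, chr1:44986546-44986845 on the minus strand for EIF2B3 and chr4:98929084-98929383 on the minus strand for EIF4E.
EIF1: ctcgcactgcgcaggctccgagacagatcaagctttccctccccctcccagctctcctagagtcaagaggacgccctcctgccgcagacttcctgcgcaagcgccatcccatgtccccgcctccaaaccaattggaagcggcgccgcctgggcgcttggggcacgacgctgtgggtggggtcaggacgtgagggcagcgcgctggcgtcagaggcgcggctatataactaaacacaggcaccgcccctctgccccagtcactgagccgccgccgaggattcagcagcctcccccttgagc
EIF2A: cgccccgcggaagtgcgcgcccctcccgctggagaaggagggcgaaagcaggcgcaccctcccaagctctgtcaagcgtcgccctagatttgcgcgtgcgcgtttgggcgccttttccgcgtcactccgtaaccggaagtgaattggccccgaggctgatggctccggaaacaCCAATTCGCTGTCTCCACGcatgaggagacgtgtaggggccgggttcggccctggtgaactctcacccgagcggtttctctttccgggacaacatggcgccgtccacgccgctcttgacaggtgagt
EIF2B3: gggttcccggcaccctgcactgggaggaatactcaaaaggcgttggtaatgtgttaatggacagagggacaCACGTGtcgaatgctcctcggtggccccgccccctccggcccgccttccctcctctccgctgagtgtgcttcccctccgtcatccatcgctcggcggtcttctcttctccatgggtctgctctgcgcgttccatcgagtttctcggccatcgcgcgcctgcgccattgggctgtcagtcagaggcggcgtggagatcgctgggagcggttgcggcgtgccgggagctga
EIF4E: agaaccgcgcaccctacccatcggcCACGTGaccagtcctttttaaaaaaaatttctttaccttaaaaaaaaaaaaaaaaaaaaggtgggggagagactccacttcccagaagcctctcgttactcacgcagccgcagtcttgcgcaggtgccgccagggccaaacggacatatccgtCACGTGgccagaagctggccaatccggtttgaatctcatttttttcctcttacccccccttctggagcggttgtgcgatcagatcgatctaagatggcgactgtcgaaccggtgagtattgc

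The ER stress response element was found in 27 of 35116 windows (0.0769%), those of HSPA5 and SERP1 among them, and in 1 of the 34 members with a window, EIF2A. There it spans bases -77 to -59, counted from the start. The RefSeq starts of EIF2A and SERP1 lie 291 bases apart on opposite strands, and the match lies in the windows of both. TGATGNAA was found in 3.62% of all windows and, of the members, only in that of EIF4E3. TGACGTCA was found in 1.85% of all windows and in none of the members. The E-box was found in 7.26% of all windows and in 9 of the 34 members: EIF1B, EIF2B3, EIF3F, EIF3K, EIF4A3, EIF4B, EIF4E, EIF4G1 and EIF4H. EIF2B3 has it at bases -179 to -174, and EIF4E has it at -225 to -220 and again at -72 to -67. The E-box has the same letters on both strands and overlaps none of the other matches shown. The EIF1 window holds no match to these letters, and neither do the windows of EIF5 and EIF4E2. EIF5 rose by more than EIF2A in OCI-AML3 cells, and EIF4E2 fell by more than EIF4E in each comparison. EIF2S2, EIF3A, EIF3E, EIF3G, EIF3H and EIF3L have no window here. Some members, such as EIF5 and EIF4E2, have more than 1 window, so a share of windows and a count of members are not in the same unit.

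EIF5, the gene of the protein that triggers GTP hydrolysis on eIF2, also rose in OCI-AML3 cells. It went from 231, 244 and 268 CPM to 457, 468 and 453 CPM at 4 h, 1.85-fold (0.89 ± 0.076, adjusted p = 3.4e-09). At 24 h it went from 162, 164 and 174 CPM to 241, 251 and 279.5 CPM, 1.54-fold (0.63 ± 0.077, adjusted p = 7.3e-07). HEK293T cells held 397, 387 and 422 CPM in DMSO and 443, 443 and 489.8 CPM in tunicamycin. Those groups did not overlap, yet the difference did not pass the test (0.19 ± 0.075, adjusted p = 0.071). The effects at 24 h in the lines differed by -0.44 ± 0.11 on the log2 scale (HEK293T minus OCI-AML3, adjusted p = 0.0046). After 24 h in DMSO, HEK293T cells held 2.41 times the EIF5 level of OCI-AML3 cells.

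**Figure D2:**
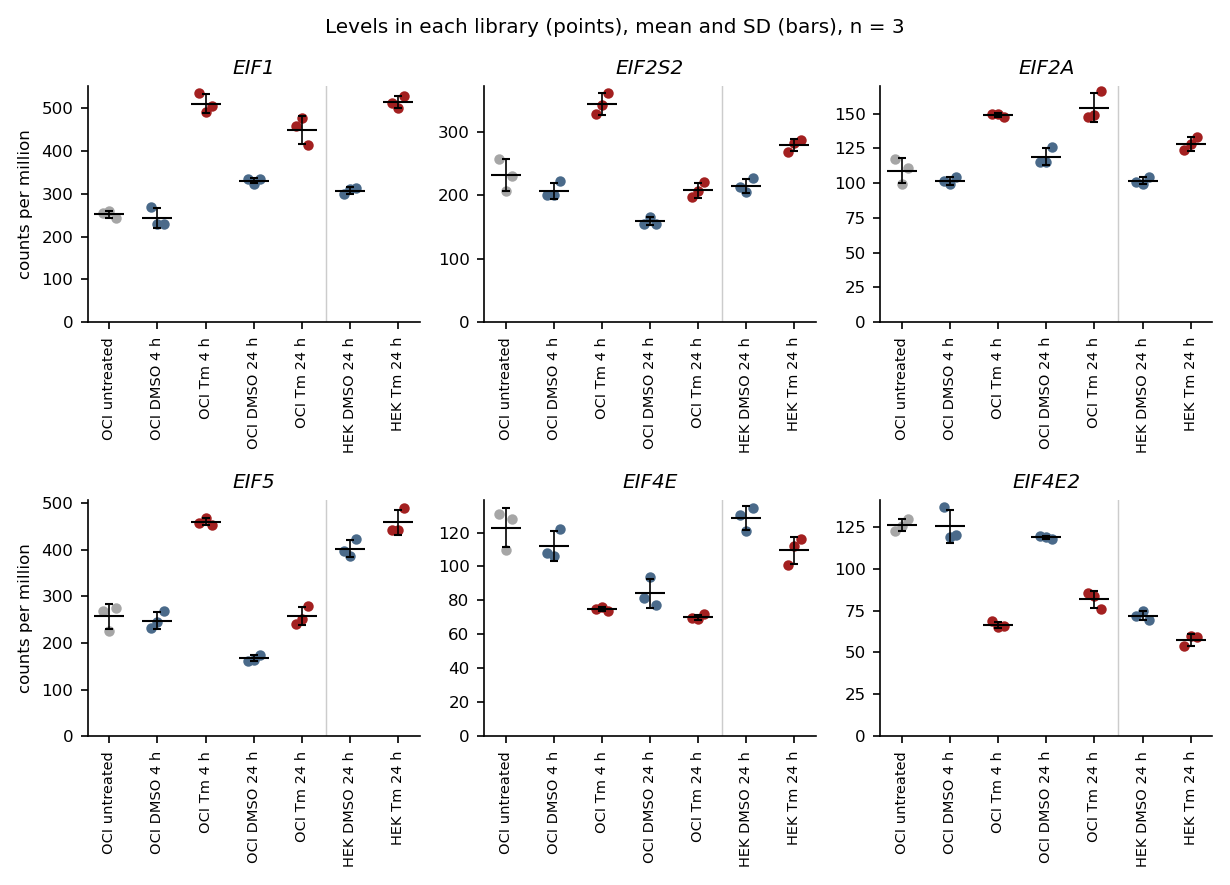
Level in CPM (vertical axis, from 0) of 6 initiation factor mRNAs in each library of the 7 groups, with tunicamycin in red, DMSO in blue and untreated cells in grey, and with the mean and SD of 3 libraries. EIF1, EIF2S2 and EIF2A stand above their DMSO controls in all 3 comparisons, EIF4E and EIF4E2 stand below them, and the EIF5 groups of HEK293T cells lie close together.

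The other factors that act at or after subunit joining fell or were not called. EIF5A encodes a factor that is now known for its role in elongation and carries the modified residue hypusine, and its mRNA was among the most abundant of the 40. At 4 h it was at 1386, 1139 and 1118 CPM in DMSO and 1096, 1043 and 982 CPM in tunicamycin (-0.22 ± 0.1, adjusted p = 0.087). By 24 h the level fell from 989, 1049.7 and 1063 CPM to 629, 654 and 459 CPM (-0.83 ± 0.1, adjusted p = 6.2e-07). Replicate 3 of tunicamycin was the lowest, and without it the log2 fold change was -0.65 (adjusted p = 3e-06). In HEK293T cells EIF5A fell from 998, 986 and 940.2 CPM to 767, 804 and 757 CPM (-0.33 ± 0.1, adjusted p = 0.019). EIF6, whose protein keeps the large subunit from joining too early, fell at 24 h from 142, 152 and 162 CPM to 111, 118 and 81.4 CPM (-0.56 ± 0.11, adjusted p = 0.00023). Replicate 3 was again the lowest, and the value without it was -0.37 (adjusted p = 0.0051). EIF6 was not called at 4 h (0.041 ± 0.11) or in HEK293T cells (0.16 ± 0.11). EIF5B, the gene of the GTPase that joins the subunits, fell at 4 h (-0.33 ± 0.11, adjusted p = 0.015), where its groups overlapped, and in HEK293T cells (-0.36 ± 0.1, adjusted p = 0.012). At 24 h in OCI-AML3 cells its value was -0.22 ± 0.11 (adjusted p = 0.098).

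All 5 subunits of eIF2B, the exchange factor of eIF2, fell in OCI-AML3 cells at 24 h, where 27.7% of all genes tested fell. EIF2B3 and EIF2B5 encode the catalytic gamma and epsilon subunits, and EIF2B1, EIF2B2 and EIF2B4 the regulatory alpha, beta and delta subunits that bind phosphorylated eIF2. EIF2B3 fell from 36.1, 34.0 and 32.0 CPM to 18.8, 21.5 and 17.9 CPM (-0.82 ± 0.087, adjusted p = 9.3e-08), to 0.567 of the DMSO level. EIF2B2 fell from 40.2, 38.0 and 35.2 CPM to 24.7, 26.9 and 22.2 CPM (-0.63 ± 0.097, adjusted p = 1.5e-05). EIF2B4 fell from 41.4, 48.3 and 46.8 CPM to 34.2, 31.3 and 29.4 CPM (-0.52 ± 0.08, adjusted p = 1.2e-05). For each of these subunits every tunicamycin library lay below every DMSO library. The share of all genes tested with groups separated in this way is not given here, while 51.1% of all genes were called in this comparison. EIF2B5 fell from 118, 124 and 124 CPM to 93.2, 94.0 and 82.0 CPM (-0.44 ± 0.073, adjusted p = 3.1e-05). EIF2B1 had the smallest fall, from 64.5, 61.0 and 65.5 CPM to 55.6, 55.0 and 49.5 CPM (-0.26 ± 0.072, adjusted p = 0.0051). The call of EIF2B1 was lost without replicate 3 of DMSO (-0.19, adjusted p = 0.056), without replicate 3 of tunicamycin (-0.16, adjusted p = 0.089) and when only its own groups were fitted (adjusted p = 0.063).

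At 4 h, when 18.9% of all genes tested fell, no eIF2B subunit was called lower by edgeR with all libraries and TMM scaling. EIF2B2 rose at that time, from 36.4, 27.1 and 32.7 CPM to 39.5, 41.4 and 35.1 CPM, with groups that overlapped (0.27 ± 0.094, adjusted p = 0.026). This call was lost under 5 of 14 alternatives: with no filter (adjusted p = 0.1), with only its own groups fitted (adjusted p = 0.078), without replicate 2 of DMSO (0.17, adjusted p = 0.18) and without replicate 1 or 2 of tunicamycin (adjusted p = 0.074 and 0.12). The other subunits were not called at 4 h, with -0.17 ± 0.07 for EIF2B1, 0.14 ± 0.081 for EIF2B3, 0.14 ± 0.077 for EIF2B4 and -0.12 ± 0.072 for EIF2B5. EIF2B3 was called higher without replicate 1 of DMSO (0.24, adjusted p = 0.019), and EIF2B1 lower without replicate 2 of DMSO (-0.22, adjusted p = 0.026), by DESeq2 (adjusted p = 0.047) and with library sizes in place of TMM (adjusted p = 0.02). Without replicate 1 of DMSO EIF2B1 was at -0.081 (adjusted p = 0.39). EIF2B5 ranged from -0.17 to -0.029 with a library left out, without a call. The interaction of tunicamycin and time was called for 4 of the 5 subunits, each with a lower value at 24 h, where 20.3% of all genes tested were called lower. The log2 difference, 24 h minus 4 h, was -0.96 ± 0.12 for EIF2B3 (adjusted p = 3.1e-06), -0.90 ± 0.14 for EIF2B2 (adjusted p = 2.9e-05) and -0.66 ± 0.11 for EIF2B4 (adjusted p = 9.2e-05). It was -0.33 ± 0.1 for EIF2B5 (adjusted p = 0.017) and -0.086 ± 0.1 for EIF2B1 (adjusted p = 0.54).

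In HEK293T cells 12.6% of all genes tested rose and 13.1% fell. None of the 5 eIF2B subunits was called there with all libraries fitted together after TMM, although their values all lay below 0. They were -0.18 ± 0.069 for EIF2B1 (adjusted p = 0.06), -0.12 ± 0.09 for EIF2B2 (adjusted p = 0.37), -0.10 ± 0.079 for EIF2B3 (adjusted p = 0.38), -0.16 ± 0.076 for EIF2B4 (adjusted p = 0.13) and -0.18 ± 0.074 for EIF2B5 (adjusted p = 0.078). At an unadjusted p under 0.05, 3 of the 5 passed, where 22 of the 40 initiation factor genes did. The share of all genes that passed unadjusted is not given here, so this count cannot be set against it. EIF2B1 was called by limma voom and by DESeq2. EIF2B1 and EIF2B5 were called with the HEK293T groups fitted alone and with library sizes in place of TMM (adjusted p = 0.011 and 0.017), and EIF2B5 without replicate 1 of DMSO (-0.25, adjusted p = 0.023). EIF2B3 ranged from -0.13 to -0.060 with a library left out, without a call. The effect of tunicamycin at 24 h differed between the lines for EIF2B3 (0.72 ± 0.12, HEK293T minus OCI-AML3, adjusted p = 0.00011), EIF2B2 (0.51 ± 0.13, adjusted p = 0.0068) and EIF2B4 (0.36 ± 0.11, adjusted p = 0.018). It was 0.26 ± 0.1 for EIF2B5 (adjusted p = 0.068) and 0.077 ± 0.099 for EIF2B1 (adjusted p = 0.61), and neither was called. EIF2B1 shares 14.8% of its exon bases with DDX55 on the opposite strand, whose own log2 fold changes were -0.30, -0.30 and -0.26 in the 3 comparisons. The part of these shared bases was not tested.

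**Figure D3:**
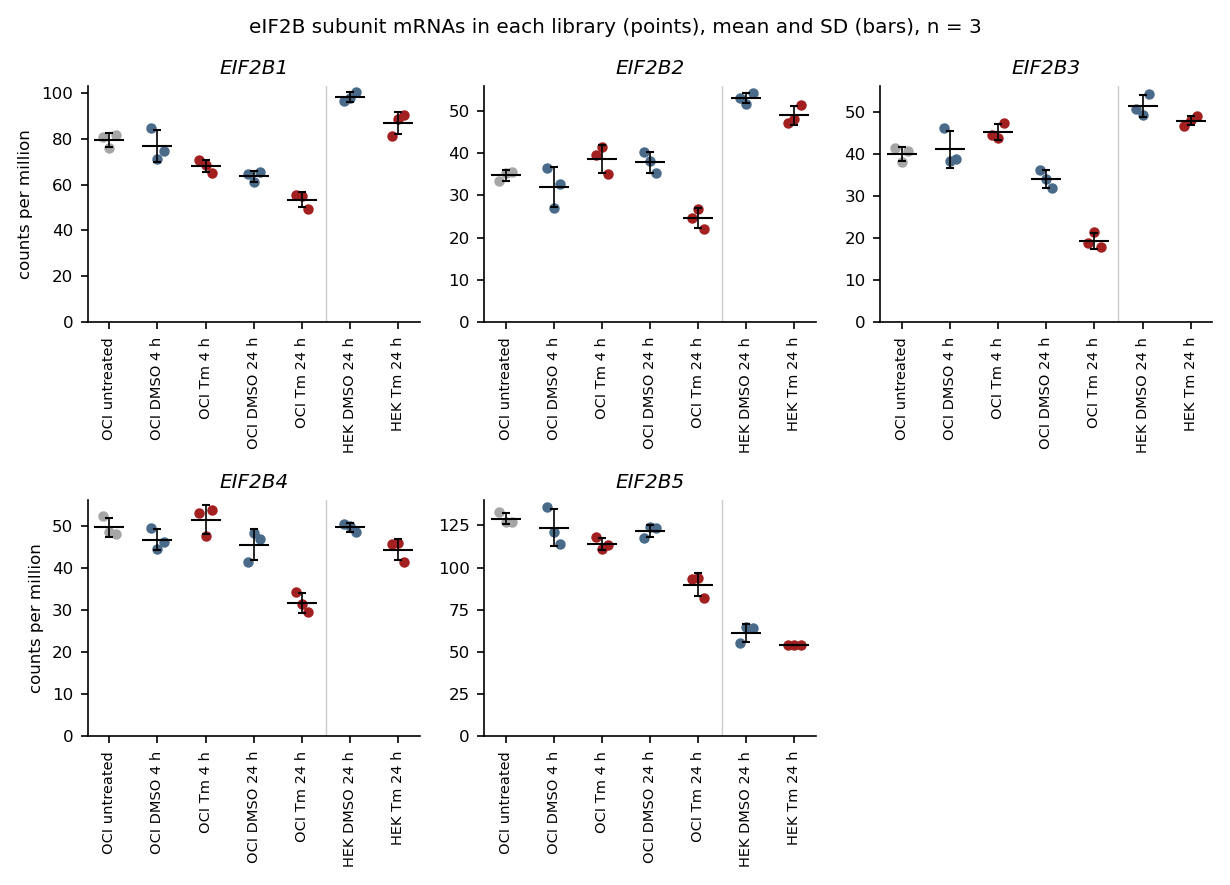
Level in CPM (vertical axis, from 0) of the 5 eIF2B subunit mRNAs in each library of the 7 groups, coloured by treatment, with the mean and SD of 3 libraries. After 24 h the tunicamycin libraries of OCI-AML3 cells lie below the DMSO libraries for every subunit, for EIF2B3 at 17.9 to 21.5 CPM against 32.0 to 36.1 CPM. The share of all genes with such a separation is not given here.

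eIF3, the large scaffold that joins the small subunit to the mRNA and the other factors, is represented by 12 genes. The core subunit gene EIF3C is not among the 40 and is given with the comparison lists. At 4 h, EIF3M rose (0.22 ± 0.06, adjusted p = 0.0056) and EIF3B fell (-0.28 ± 0.061, adjusted p = 0.00089), where 18.5% and 18.9% of all genes did, and the other 10 ranged from -0.099 to 0.20 without a call. At 24 h, 6 of the 12 fell and none rose, where 27.7% and 23.5% of all genes did. EIF3I, one of the peripheral subunits with a WD40 fold, fell the most, from 245, 258 and 269 CPM to 160.2, 182 and 139 CPM (-0.68 ± 0.088, adjusted p = 1.3e-06). The core subunit EIF3B followed (-0.50 ± 0.061, adjusted p = 7.6e-07), then EIF3G (-0.45 ± 0.1, adjusted p = 0.00066), EIF3D (-0.28 ± 0.068), EIF3K (-0.27 ± 0.088, with groups that overlapped) and EIF3M (-0.15 ± 0.06). EIF3B, EIF3G and EIF3I, whose proteins bind each other in one module of the complex, had the 3 largest falls. The other 6, EIF3A, EIF3E, EIF3F, EIF3H, EIF3J and EIF3L, ranged from -0.062 to 0.13. In HEK293T cells EIF3B fell again (-0.30 ± 0.061, adjusted p = 0.00068), and EIF3F (0.43 ± 0.079, adjusted p = 0.00027) and EIF3L (0.29 ± 0.058, adjusted p = 0.00062) rose. EIF3F went from 146, 147 and 148 CPM to 193, 207 and 195 CPM. Both EIF3F and EIF3L had counts that were not whole numbers in 100% of the libraries, that is, they share reads with other loci, so their values are less certain. The falls of EIF3G and EIF3I at 24 h differed from their 4 h values (-0.66 ± 0.14, adjusted p = 0.001, and -0.58 ± 0.12, adjusted p = 0.00089), and that of EIF3I differed from HEK293T cells (0.58 ± 0.12, adjusted p = 0.0014).

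The helicases eIF4A and their helper proteins fell or were not called in each comparison. EIF4A1, the main helicase that unwinds the start of the mRNA, fell at 4 h from 1944, 1665 and 1723 CPM to 1592, 1567 and 1473 CPM (-0.20 ± 0.071, adjusted p = 0.028). After 24 h a fall was measured from 1699.8, 1804 and 1824 CPM to 1138, 1197 and 982 CPM (-0.68 ± 0.072, adjusted p = 7.3e-08). HEK293T cells went from 1329, 1322 and 1295 CPM to 1071, 1080.4 and 1073 CPM (-0.29 ± 0.071, adjusted p = 0.0041). EIF4A1 shares 28.2% of its exon bases with a read-through gene on its strand, SENP3-EIF4A1, and 42.1% with a long non-coding gene on that strand, and had counts that were not whole in 100% of the libraries, so how reads were divided bears on its level. EIF4A3, the helicase of the exon junction complex, fell at 4 h (-0.38 ± 0.07, adjusted p = 0.00017) and at 24 h from 275, 283 and 287 CPM to 189, 179 and 154 CPM (-0.69 ± 0.071, adjusted p = 4.9e-08). In HEK293T cells its value was -0.15 ± 0.07 (adjusted p = 0.11), and the lines differed by 0.54 ± 0.1 (adjusted p = 0.00041). EIF4A2, the paralog of EIF4A1, fell in OCI-AML3 cells at 4 h (-0.26 ± 0.084, adjusted p = 0.018) and 24 h (-0.37 ± 0.084, adjusted p = 0.00086) and was at -0.033 ± 0.083 in HEK293T cells. EIF4H, which stimulates the helicase, fell at 24 h in OCI-AML3 cells (-0.39 ± 0.057, adjusted p = 6.5e-06), and its effect there differed from that at 4 h (-0.39 ± 0.081, adjusted p = 0.00079). EIF4B, the other helper, had values of -0.0038 ± 0.054, -0.034 ± 0.054 and 0.059 ± 0.054 in the 3 comparisons.

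EIF4E and EIF4E2, which bind the cap, fell in all 3 comparisons. EIF4E, which encodes the cap-binding subunit of eIF4F, went from 108, 106 and 122 CPM to 74.8, 76.1 and 73.5 CPM at 4 h (-0.58 ± 0.082, adjusted p = 5.6e-06). After 24 h the level went from 81.7, 93.8 and 77.4 CPM to 69.8, 68.8 and 71.8 CPM (-0.27 ± 0.083, adjusted p = 0.01). HEK293T cells went from 130.5, 121 and 135 CPM to 100.77, 112 and 116 CPM (-0.23 ± 0.08, adjusted p = 0.036). EIF4E had counts that were not whole in 66.7% of the libraries, so some of its reads fit other loci too. EIF4E2 encodes a cap-binding protein, 4EHP, that competes with eIF4E and represses translation, and it had the largest called fall of the 40 at 4 h. It went from 137, 119 and 119.8 CPM to 68.5, 65.0 and 65.7 CPM, to 0.531 of the DMSO level (-0.91 ± 0.067, adjusted p = 2.2e-10). At 24 h it went from 119.6, 119 and 118 CPM to 85.2, 83.8 and 75.9 CPM (-0.54 ± 0.066, adjusted p = 6.6e-07), and in HEK293T cells from 71.8, 74.9 and 69.3 CPM to 53.6, 59.9 and 58.9 CPM (-0.32 ± 0.067, adjusted p = 0.00093). The falls of EIF4E and EIF4E2 were smaller at 24 h than at 4 h in OCI-AML3 cells, by 0.32 ± 0.12 (adjusted p = 0.037) and 0.37 ± 0.094 (adjusted p = 0.0038). An unnamed long non-coding RNA on the opposite strand shares 10.4% of the exon bases of EIF4E2 and had a log2 fold change of -1.39 ± 0.17 at 4 h and -0.14 ± 0.16 at 24 h, and the part of the shared bases was not tested.

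EIF4EBP2, which encodes a repressor that binds eIF4E, fell at 4 h from 267, 273 and 270.1 CPM to 202, 189.7 and 196 CPM (-0.46 ± 0.061, adjusted p = 2.2e-06). It was not called at 24 h (-0.048 ± 0.061) or in HEK293T cells (0.11 ± 0.06), and the effects at 4 h and 24 h differed (0.42 ± 0.086, adjusted p = 0.00068). EIF4E3, another cap-binding protein, held 3 to 17 counts in each OCI-AML3 library and 361 to 515 counts in each HEK293T library, so its OCI-AML3 fold changes rest on few counts and none was called. Of the scaffold proteins, EIF4G1, the core of eIF4F, fell in all 3 comparisons (-0.26 ± 0.085, -0.41 ± 0.085 and -0.57 ± 0.085, adjusted p = 0.018, 0.00038 and 2.7e-05). Its fall in HEK293T cells, from 795, 829.8 and 806 CPM to 574, 548 and 521 CPM, was the largest of the 40 in that line. EIF4G2, whose protein serves initiation that does not depend on eIF4E, rose in OCI-AML3 cells at 4 h (0.19 ± 0.056, adjusted p = 0.0096) and 24 h (0.17 ± 0.056, adjusted p = 0.016) and fell in HEK293T cells (-0.19 ± 0.056, adjusted p = 0.017). The effect at 24 h differed between the lines by -0.35 ± 0.079 (adjusted p = 0.0022). EIF4G3 fell at 4 h (-0.27 ± 0.076, adjusted p = 0.0075), and its value at 24 h was 0.055 ± 0.076.

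EIF1, EIF2S2 and EIF2A were the 3 members called higher in all 3 comparisons, which share no library, where 4.45% of all genes tested were. EIF3B, EIF4A1, EIF4E, EIF4E2 and EIF4G1 were the 5 called lower in all 3, where 3.85% of all genes were. EIF1AX, EIF3A, EIF3E, EIF3H, EIF3J, EIF4B and EIF4E3 were the 7 of 40 called in none, where 29.1% of all genes tested were. The interaction of tunicamycin with time was called for 21 members, 4 with a higher and 17 with a lower value at 24 h than at 4 h, where 15.1% and 20.3% of all genes were. The 4 were EIF4E, EIF4E2, EIF4EBP2 and EIF4G3, which had each fallen at 4 h. At a size of at least 0.5, 8 of the 40 were called, each lower at 24 h, where 12.1% of all genes were called lower and 10.6% higher. The interaction with the line was called for 16 members, 14 with a higher and 2, EIF4G2 and EIF5, with a lower value in HEK293T than in OCI-AML3 cells, where 15.9% and 10.9% of all genes were. At a size of at least 0.5, 6 of the 40 were called, each higher in HEK293T cells, where 9.38% of all genes were called higher and 7.69% lower. Without replicate 3 of DMSO in HEK293T cells 10 members were called, and 20.3% of all genes in place of 26.8%. With library sizes in place of TMM the split was 9 and 2, the calls over all genes were 10.8% higher and 15.5% lower, and the median of all genes moved from 0.021 to -0.091.

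**Figure D4:**
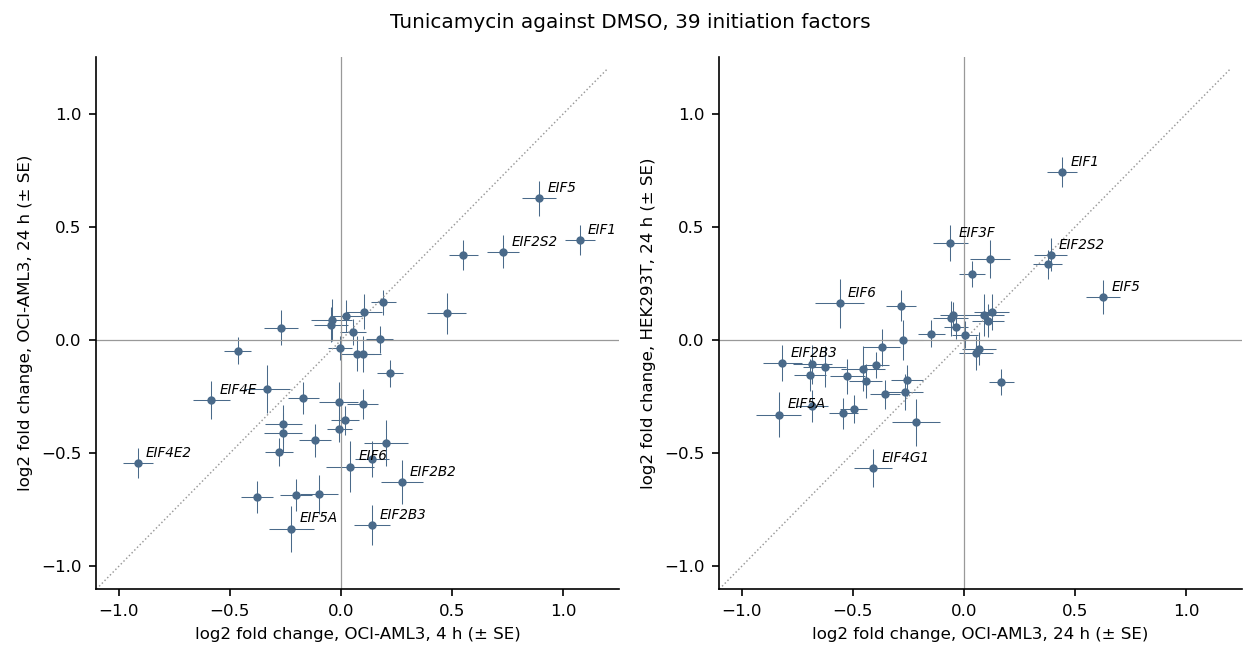
Log2 fold change after tunicamycin against DMSO, with SE bars, at 24 h against 4 h in OCI-AML3 cells (left) and at 24 h in HEK293T against OCI-AML3 cells (right), for the members other than EIF4E3, with a dotted line of equal values. EIF2B2 and EIF2B3 lie right of 0 at 4 h and below 0 at 24 h, and most members with a fall at 24 h in OCI-AML3 cells lie above the dotted line in the right-hand plot.

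Without tunicamycin, 4 h in DMSO left these mRNAs without a call. Against untreated OCI-AML3 cells, 0 of the 40 genes rose or fell by edgeR's test, where 0% and 0% of all 14012 genes did, and limma voom and DESeq2 also called 0 of the 40 (0 and 19 of all genes). At an unadjusted p under 0.05, 3 members passed in edgeR (EIF1AX, -0.23 ± 0.076, EIF4A2, -0.20 ± 0.083, and EIF2S2, -0.16 ± 0.073), 4 in limma voom and 4 in DESeq2. The share of all genes that passed unadjusted is not given here, so these counts cannot be set against it. From 4 h to 24 h in DMSO, 23 members were called, 11 higher and 12 lower, where 42.6% of all genes were called, 2944 higher and 3026 lower. EIF4B (0.47 ± 0.054, adjusted p = 5.3e-07), EIF3E (0.45 ± 0.093, adjusted p = 0.00054) and EIF1 (0.45 ± 0.067, adjusted p = 1.6e-05) rose the most among the called members, and EIF4E3 had a higher value that was not called (0.81 ± 0.3, adjusted p = 0.061). EIF5B (-0.71 ± 0.11, adjusted p = 1.5e-05), EIF5 (-0.57 ± 0.077, adjusted p = 4.3e-06) and EIF1AX (-0.52 ± 0.077, adjusted p = 1.5e-05) fell the most. The DMSO libraries are the controls of the tunicamycin comparisons too, so EIF1 was compared with a control of 243 ± 23.3 CPM at 4 h and 331 ± 6.66 CPM at 24 h (SD, n = 3), and EIF5 with 248 ± 18.9 CPM and 167 ± 6.73 CPM. With tunicamycin, EIF1 stood at 510.3 ± 23.0 CPM and 449 ± 32.9 CPM, and EIF5 at 459 ± 7.73 CPM and 257 ± 19.94 CPM. With library sizes in place of TMM the split was 8 higher and 17 lower. The median of the 40 moved from -0.014 to -0.13 and that of all genes from -0.020 to -0.14. How the calls over all genes split under this scaling is not given here.

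The lines differed in these mRNAs even without tunicamycin. After 24 h in DMSO, 17 members were higher and 15 lower in HEK293T than in OCI-AML3 cells, where 40.5% and 42.2% of all genes were. EIF4E3, EIF1AX, EIF5, EIF5B and EIF3H were past a log2 difference of 1 in size, where 45.2% of all genes were. EIF4E3 differed most, with 1.22, 0.733 and 0.693 CPM in OCI-AML3 and 21.9, 19.3 and 22.9 CPM in HEK293T cells (4.59 ± 0.17, adjusted p = 3.7e-17), but it reached 1 CPM in only 8 libraries, the 6 of HEK293T cells and 2 of OCI-AML3 cells, the fewest that pass the filter. EIF1AX was at 106, 110.0 and 112 CPM in OCI-AML3 and 382, 386 and 409 CPM in HEK293T cells (1.84 ± 0.078, adjusted p = 5.1e-16), EIF5 differed by 1.27 ± 0.078 (adjusted p = 4.7e-13) and EIF5B by 1.13 ± 0.11 (adjusted p = 1.2e-09). EIF3H was lower in HEK293T cells, at 136, 129 and 135 CPM against 347, 331 and 409.6 CPM (-1.44 ± 0.081, adjusted p = 9.4e-14), followed by EIF2B5 (-0.99 ± 0.073, adjusted p = 1.7e-11) and EIF3F (-0.96 ± 0.079, adjusted p = 1e-10). The eIF2B subunits did not share a direction: EIF2B1, EIF2B2 and EIF2B3 were higher in HEK293T cells, EIF2B5 was lower and EIF2B4 was not called (0.12 ± 0.077). With library sizes in place of TMM the split was 24 higher and 9 lower. The median of the 40 moved from 0.073 to 0.42 and that of all genes from -0.013 to 0.33. The split of calls over all genes under this scaling is not given here. The differences of EIF2B5 and EIF3F shrank to -0.65 and -0.62, and the 3 members farthest from 0 in each direction kept their direction.

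Levels of different genes are compared here in CPM per kb of the MANE Select transcript. After 24 h in DMSO, EIF4A1 led in OCI-AML3 cells at 1010.2 ± 38.0 CPM per kb (SD, n = 3), followed by EIF5A at 818 ± 31.3. In HEK293T cells EIF5A, at 771 ± 24.0, and EIF4A1, at 748 ± 10.2, did not differ beyond their spread. EIF4E was at 34.7 ± 3.50 in OCI-AML3 and 53.0 ± 2.97 in HEK293T cells, below EIF4G1 (133 ± 14.7 and 149.9 ± 3.28) and above EIF4G3 (26.3 ± 2.09 and 29.6 ± 0.473). The eIF2 subunits were ordered EIF2S3, EIF2S2 and EIF2S1 in both lines, at 79.2 ± 3.98, 62.1 ± 2.39 and 27.9 ± 2.07 in OCI-AML3 cells and 117 ± 4.98, 84.2 ± 4.30 and 27.4 ± 0.72 in HEK293T cells. Within eIF2B, EIF2B5 was highest in OCI-AML3 cells at 47.5 ± 1.42, EIF2B4 (27.7 ± 2.21) and EIF2B1 (26.6 ± 0.972) did not differ beyond their spread, and EIF2B2 was lowest at 8.79 ± 0.587. In HEK293T cells EIF2B1 was highest at 41.0 ± 0.845 and EIF2B2 again lowest at 12.3 ± 0.29.

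**Figure D5:**
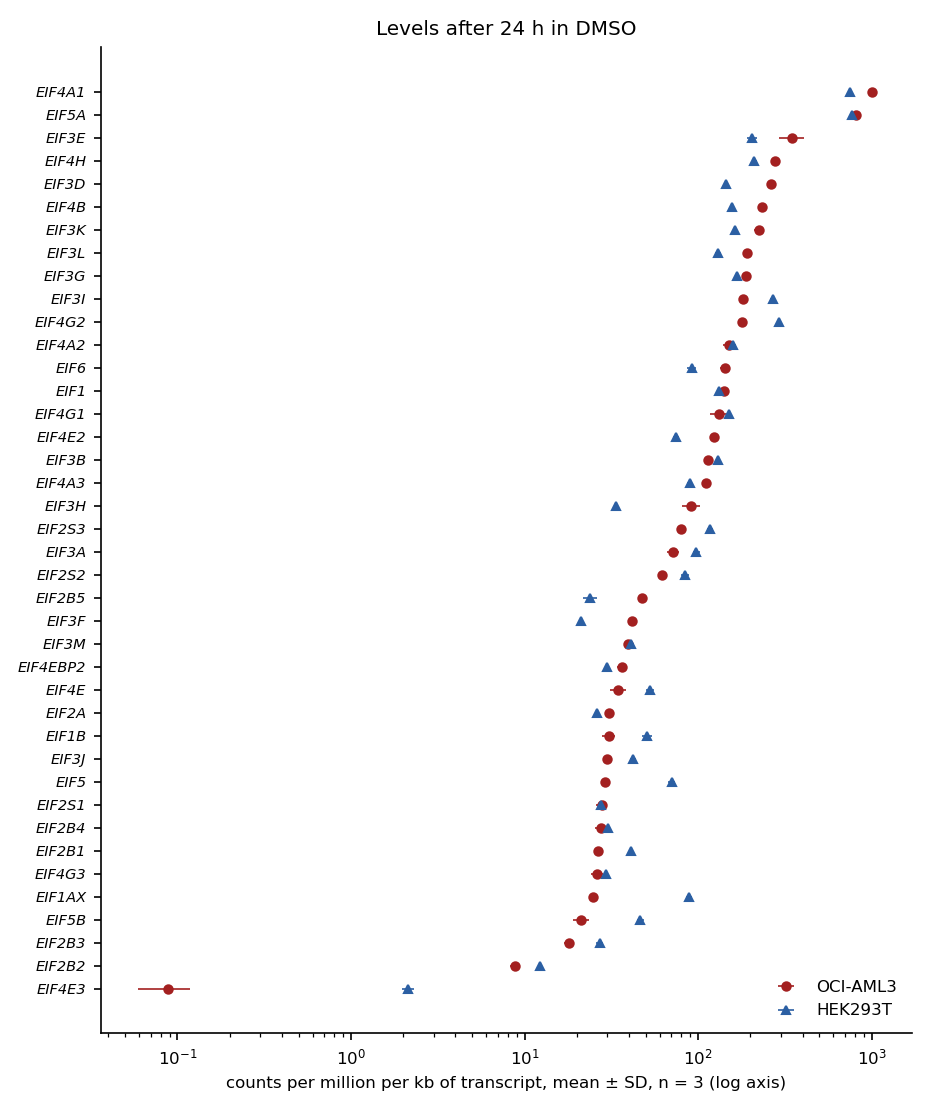
Level of each of the 40 mRNAs in CPM per kb of transcript (horizontal log axis) after 24 h in DMSO, as the mean and SD of 3 libraries of OCI-AML3 (circles) and HEK293T cells (triangles). EIF4A1 and EIF5A are highest in both lines, and EIF4E3 lies apart at the low end, at 0.0884 ± 0.0294 in OCI-AML3 and 2.14 ± 0.182 in HEK293T cells.

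Other genes of initiation and its control, 22 in all, were taken as a list for comparison. At 4 h, 7 of them (31.8%) rose and 2 (9.09%) fell, where 18.5% and 18.9% of all genes did. At 24 h as well as in HEK293T cells 5 (22.7%) rose and 2 (9.09%) fell, where 23.5% and 27.7% of all genes did in OCI-AML3 and 12.6% and 13.1% in HEK293T cells. The medians of the list were 0.13, 0.058 and 0.063. PPP1R15A, which encodes the GADD34 subunit that directs a phosphatase to eIF2 alpha, rose the most at 4 h (2.39 ± 0.083, adjusted p = 3.5e-16) and was at 0.33 ± 0.081 (adjusted p = 0.0017) at 24 h. In HEK293T cells PPP1R15A rose at 24 h (1.21 ± 0.086, adjusted p = 2.4e-10), and the lines differed by 0.88 ± 0.12 (adjusted p = 9.7e-06). EIF2AK3, the gene of PERK, rose at 4 h (1.64 ± 0.087, adjusted p = 7.7e-13), at 24 h (1.47 ± 0.09, adjusted p = 1e-11) and in HEK293T cells (1.31 ± 0.085, adjusted p = 5.2e-11). EIF4EBP1, the paralog of EIF4EBP2, rose at 4 h (0.90 ± 0.11, adjusted p = 5.9e-07), when EIF4EBP2 fell, and was at -0.039 ± 0.11 (adjusted p = 0.78) at 24 h. It rose in HEK293T cells (1.46 ± 0.11, adjusted p = 7.1e-10). DDX3X, a helicase that aids scanning, fell at 4 h (-1.49 ± 0.074, adjusted p = 2.1e-13) and rose at 24 h (0.29 ± 0.072, adjusted p = 0.0018), and the effects differed (1.79 ± 0.1, adjusted p = 2.5e-11). EIF3C, a core subunit of eIF3 whose reads may be divided with its near-identical copy EIF3CL, rose at 4 h (0.35 ± 0.066, adjusted p = 0.00022), fell at 24 h (-0.23 ± 0.066, adjusted p = 0.0058) and was at 0.02 ± 0.066 in HEK293T cells. Of 13 elongation and termination factors, 3 (23.1%) rose and 1 (7.69%) fell at 4 h, 2 (15.4%) rose and 4 (30.8%) fell at 24 h, and 3 (23.1%) rose and none fell in HEK293T cells, beside the same shares of all genes. EEF2K, the kinase that inhibits elongation factor eEF2, was the 1 that fell at 4 h (-0.70 ± 0.07, adjusted p = 4.7e-08). It also fell at 24 h (-0.18 ± 0.069, adjusted p = 0.034) and rose in HEK293T cells (0.33 ± 0.069, adjusted p = 0.0012).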

How the data were processed

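The authors sequenced polyadenylated RNA. Reads were trimmed by seqtk, placed on GRCh38 by STAR and assigned by RSEM to the genes of Ensembl release 101. They deposited RSEM expected counts (estimated counts per gene, which divide a read that fits several loci), neither scaled nor filtered, for 60671 genes in 21 libraries. A strand setting is not given in the sources used here. The expected counts were rounded to whole numbers. The test covered the 14012 genes that reached 1 CPM in 8 libraries or more, with TMM scaling and edgeR's quasi-likelihood test (edgeR 4.0.16, R 4.3.3) and 1 mean for each of 7 groups. Calls needed an adjusted p (Benjamini-Hochberg) no higher than 0.05. The SE was taken as the size of the log2 fold change over the root of the F statistic. Library totals of 13838480 to 19961819 counts set the precision of low genes. The libraries of each group all differed.

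GENCODE release 44 (GRCh38) gave gene positions, overlaps and transcript lengths, and RefSeq gave the promoter windows. Of the 40 genes, 17 share exon bases with another tested gene, 16 of them with one on the opposite strand. In 11 genes the counts were not whole in some library, which makes them less certain. Besides EIF3F, EIF3L and EIF4A1, these include EIF4B (95.2% of the libraries), EIF4E (66.7%), EIF4H (52.4%), EIF6 (42.9%) and EIF2S2 (38.1%). The members and the lists were chosen with earlier results of these data known. Named in full are the subunits of eIF2 and eIF2B, the members called with a log2 fold change of at least 0.5 in size (interactions likewise), and, of the members called, the 3 farthest from 0 in each direction for the other comparisons. Other members are named after their values were seen. The alternatives were limma voom (limma 3.58.1), DESeq2 (1.42.0), DESeq2 size factors, library sizes without TMM, 2 other filters, models of only the groups compared, a replicate block and each library left out. The models were tested on simulated data. Figures were drawn with matplotlib 3.10.9.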

Additional observations from a re-analysis of the deposited data

Results flagged for a closer look

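The effect of tunicamycin in OCI-AML3 cells differed between 24 h and 4 h for 8 members by at least 0.5 on the log2 scale, by edgeR's interaction term, each with a lower value at 24 h, where 12.1% of all genes tested passed the same rule in that direction. The differences, 24 h minus 4 h, were -0.96 for EIF2B3, -0.90 for EIF2B2 and -0.66 for EIF2B4, 3 subunits of the exchange factor eIF2B. They were -0.66 for EIF3G and -0.58 for EIF3I of eIF3. They were -0.63 for EIF1, which rose at both times, -0.61 for EIF5A and -0.60 for EIF6. The adjusted p of these 8 was between 3.1e-06 and 0.0047.

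The effect at 24 h differed between the lines for 6 members by at least 0.5, each with a higher value in HEK293T cells, where 9.38% of all genes tested passed the same rule in that direction. The differences, HEK293T minus OCI-AML3, were 0.72 for EIF6, 0.72 for EIF2B3, 0.58 for EIF3I, 0.54 for EIF4A3, 0.51 for EIF2B2 and 0.50 for EIF5A, with an adjusted p between 0.00011 and 0.012 by edgeR. EIF2B2, EIF2B3, EIF3I, EIF5A and EIF6 stand in both groups, which share the OCI-AML3 libraries at 24 h. That of EIF5A was 0.32 (adjusted p = 0.052) without replicate 3 of tunicamycin in OCI-AML3 cells and 0.43 (adjusted p = 0.056) without replicate 3 of DMSO in HEK293T cells.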

How the results depend on the processing

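Only the 64 values named in full were followed under the alternatives. Of 980 such values, 945 kept their direction and their side of the threshold, 18 lost a call, 11 gained one and 6 changed sign. In the tunicamycin comparisons the subunits of eIF2 and eIF2B were named whatever their result. All others were picked from the values called, so their stability was partly set by that choice. Smaller calls, such as EIF4A1 at 4 h and EIF4E in HEK293T cells, were not followed singly. The sign changes were all of values near 0 without a call. EIF2S1 at 4 h was -0.018 with no filter and -0.024 to 0.060 with a library left out. EIF2S3 at 24 h in OCI-AML3 cells was -0.014 with no filter and -0.011 to 0.098 with a library left out. EIF2S3 in HEK293T cells was -0.0082 with library sizes and -0.0070 to 0.054 with a library left out. With a library left out, the members called for tunicamycin numbered 14 to 21 at 4 h, 23 to 26 at 24 h and 11 to 14 in HEK293T cells, 17 to 22 for the interaction with time and 10 to 16 for that with the line. The share of all genes tested that was called ranged from 31.7% to 36.4%, 41.7% to 50.3%, 18.9% to 20.6%, 30.5% to 40.2% and 20.2% to 28.1% in the same order. The members called numbered 20 to 24 for DMSO over time, 0 for DMSO at 4 h and 30 to 33 between the lines. Of all genes tested, 34.2% to 45.4%, 0% to 0.186% and 80.6% to 81.0% were called in the same order. The fit of the compared groups alone called 29 in HEK293T cells in place of 15, and the cause was not tested. Past a log2 fold change of 1 in size, 1 member was called at 4 h, 0 at 24 h, 0 in HEK293T cells, 0 in both interactions, 0 for DMSO over time and 5 between the lines, which follows from the stricter rule. Of the 14012 genes tested, 690, 885 and 298 were called past that size in the tunicamycin comparisons. It was 849 for the interaction with time, 685 for that with the line, 581 for DMSO over time and 6335 between the lines. The correlation of deviations between libraries with the same number was -0.14 to 0.20. In HEK293T cells it was 0.044, 0.058 and 0.119, and each library correlated best with the one of its own number. These values are low, and the numbers were not taken to pair the samples. With a replicate block, all 64 named values kept their direction and call. Depth limits EIF4E3 in OCI-AML3 cells, at 3 to 17 counts in a library.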
